A study of Rattus norvegicus with 12 samples.

Results

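The gene models described here are the noncoding RNA models of rat heart. They are the rows that the deposited table labels with a type other than protein-coding or ribosomal RNA and whose mean deposited value over 12 libraries was at least 5, with 1 further row left out by name. The rule found 50 models of the 17322 in the table, and all 50 were among the 12983 models tested. The table held 599 noncoding rows in all. Of the 548 below the threshold, 250 were at 0 in every library. Just inside the threshold lay LOC100909675 at 6.02, LOC100910802 at 5.67 and Mir3064 at 5.53, and just outside it lay Mir1896 at 4.71, RGD1562146 at 4.39 and LOC100911723 at 4.27. Members were thus selected on the mean deposited value over all libraries, so their overall level is given as a description, and tests concern only differences between groups.

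The hearts came from Sprague Dawley rats, an outbred laboratory stock, killed at 15 weeks of age. Dams modelling gestational diabetes mellitus (GDM) ate a high fat and sucrose (HFS) diet from before mating through lactation, while Lean dams received low fat (LF) food. Offspring of both kinds of dam were assigned at random to LF or HFS food at weaning at 3 weeks. Each group is named for the dam and then for the offspring's food. Lean-LF and Lean-HFS are the groups from Lean dams, GDM-LF and GDM-HFS those from GDM dams, and each has 3 libraries. The labels name no genetic change in any group, and the GDM model is one of diet, so the dam's metabolic state and her diet cannot be told apart. The labels name whole hearts but not litters or sex, so a p-value here speaks only for the spread among these libraries, some of which may share a dam. The other animals of the planned 6 per group were not analysed here.

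Noncoding RNAs are transcripts that act as RNA or whose protein product, if any, is not annotated. Some are small, stable and found in every cell, such as the RNA of ribonuclease P, which trims the 5′ end of transfer RNA precursors, and 7SL RNA, the scaffold of the signal recognition particle that brings ribosomes to the endoplasmic reticulum. Long noncoding RNAs (lncRNAs) resemble messenger RNAs in their capping and splicing, and some act on chromatin, on neighbouring genes or on microRNAs. A few transcripts first listed as noncoding were later found to encode microproteins, and the heart has well-known cases.

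Against a RefSeq gene table of the later assembly GRCr8, 45 of the 50 models matched by accession, 3 by symbol and 2 not at all. RefSeq there calls 38 of them lncRNAs, 3 transcribed pseudogenes, 1 a pseudogene, 2 microRNA genes, 1 a signal recognition particle RNA and 1, Rpph1, an RNA of the RNase MRP class. It calls 2, Tmem80 and Rhno1, protein-coding. Several carry other names in that table. LOC100910827 is Oip5-as1, the lncRNA known as Cyrano, which binds the microRNA miR-7. LOC102546391 is Strit1, which encodes DWORF, a microprotein that activates the calcium pump SERCA of the sarcoplasmic reticulum by displacing its inhibitor phospholamban. Smim37 is Mtln, which encodes mitoregulin, a microprotein of the inner mitochondrial membrane. LOC100363521 is Smim30l1 and Ybx1-ps3 is Ybx1-ps20.

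Of the 598 noncoding rows considered, 440 were microRNA models, and only 2 of these reached the threshold. Their mature RNAs are shown because they are the only microRNA genes among the 50, in RefSeq letters with the seed, bases 2 to 8 from the 5′ end, in capitals. On GRCr8 they lie at chr11:70559921-70559940 and chr10:92225520-92225543, both on the minus strand. The seeds differ, so the pair belongs to different seed families.
rno-miR-568: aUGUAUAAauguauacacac
rno-miR-3064-3p: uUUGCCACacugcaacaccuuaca
The libraries were made from long RNA fragments, so the values of Mir568 and Mir3064 count reads over the hairpin, not mature microRNA. Mir3064 lies wholly within the coding model Ddx5 on the same strand, and the mean of Ddx5 was 1142 against 5.53 for Mir3064. Reads over Mir3064 numbered 16 to 36 per library.

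RefSeq promoter windows, 250 bases before to 50 after the start on GRCr8, were found for 36 of the 50 models. Windows are shown for the lncRNA that drew the most reads (Oip5-as1), for the model with the smallest diet p-value (Mtln) and for a lncRNA whose low Lean-LF values are described below (Kantr). Capitals mark CCAAT boxes (CCAAT) and GC boxes (GGGCGG), searched on both strands. The windows lie at chr3:127031872-127032171 (plus strand), chr3:135472890-135473189 (minus strand) and chrX:24909987-24910286 (minus strand).
Oip5-as1: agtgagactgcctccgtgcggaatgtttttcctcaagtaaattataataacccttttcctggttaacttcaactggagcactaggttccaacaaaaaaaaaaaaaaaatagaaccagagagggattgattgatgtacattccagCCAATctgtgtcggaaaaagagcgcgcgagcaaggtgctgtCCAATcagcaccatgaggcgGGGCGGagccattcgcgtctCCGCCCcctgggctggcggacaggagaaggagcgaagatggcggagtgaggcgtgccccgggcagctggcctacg
Mtln: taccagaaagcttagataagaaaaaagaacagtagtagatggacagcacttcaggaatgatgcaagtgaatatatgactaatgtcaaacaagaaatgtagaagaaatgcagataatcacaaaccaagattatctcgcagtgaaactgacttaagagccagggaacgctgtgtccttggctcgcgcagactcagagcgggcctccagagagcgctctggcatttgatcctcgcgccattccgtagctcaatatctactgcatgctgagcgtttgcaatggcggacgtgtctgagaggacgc
Kantr: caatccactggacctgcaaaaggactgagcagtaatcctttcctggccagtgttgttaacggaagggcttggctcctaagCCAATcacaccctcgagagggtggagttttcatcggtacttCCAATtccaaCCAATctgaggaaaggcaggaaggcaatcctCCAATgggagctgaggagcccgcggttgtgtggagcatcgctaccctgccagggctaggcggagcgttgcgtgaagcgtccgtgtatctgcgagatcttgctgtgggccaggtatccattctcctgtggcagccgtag
The Oip5-as1 window held 2 CCAAT boxes and 2 GC boxes, the Kantr window 4 CCAAT boxes, all on the sense strand, and the Mtln window neither motif. Over 37 windows of the 36 models, 12 held a CCAAT box, 18 a GC box and 6 a TATA box (TATAAA). Among all 33469 windows in the table, 37.5% held a CCAAT box, 33.1% a GC box and 14.2% a TATA box. The estrogen-related receptor half-site AAGGTCA, held by 4.61% of all windows, was in none of the 37.

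The unit is a normalised read signal: whole reads times a constant for each library (0.184 to 0.262), scaled here between libraries. Outside ribosomal RNA models each library held 9172734 to 14418970 reads, and the 50 models took 0.183 to 0.201% of these. The values are not divided by length, and no source used here says whether introns were counted. The 45S ribosomal RNA model held 16.5 to 37.1% of the sum of its own reads and those outside ribosomal RNA, most in Lean-LF 1. Cardiomyocyte markers (Myh6, Tnnt2, Actc1, Pln, Ryr2 and Myl2) were all present, with a summed signal of 105260 in Lean-HFS 2 and 145330 to 195530 in the other 11 libraries, so Lean-HFS 2 stood apart.

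**Figure D1:**
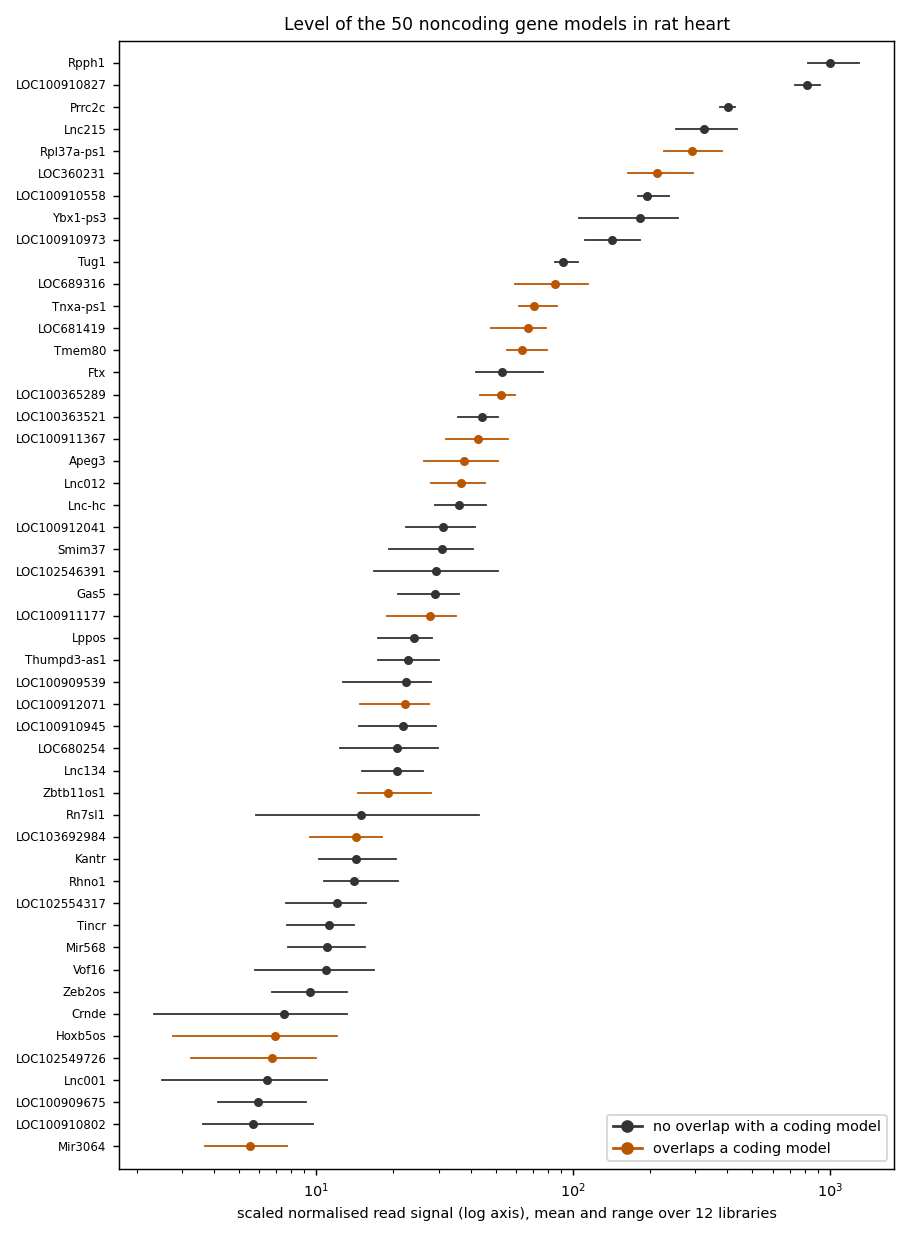
Mean scaled normalised read signal (points, log axis) and range over 12 libraries (lines) of the 50 noncoding models, not divided by length. Rpph1 and LOC100910827 (Oip5-as1) lie at the top, and the 4 highest do not overlap a coding model. The highest of the 17 that do (orange) is Rpl37a-ps1 at 292.

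Read signal was concentrated in few models. The mean scaled signal was 1002 for Rpph1, 818 for LOC100910827 (Oip5-as1), 402 for Prrc2c and 323 for Lnc215. LOC360231 had 212, the uncharacterised LOC100910558, beside the gene of the transcription factor Nfib, 194, Ybx1-ps3 183 and LOC100910973 142. Rpph1 alone held 21.1% of the summed deposited signal of the 50, the 4 highest held 53.9% and the 9 with a mean of at least 100 held 75.5%. The median mean was 28.4, and 17 models lay under 20. Spans ran from 67 to 117938 bases with a median of 4148, so a high signal can go with a long model. Per kb of span, Rpph1 was highest with a mean scaled signal of 3897, followed by the pseudogenes Rpl37a-ps1 at 141 and Ybx1-ps3 at 120, by Mir568 at 114 and Mir3064 at 82.5. LOC100910827 (Oip5-as1) stood at 60.4 per kb, Tnxa-ps1 at 52.0, Rn7sl1 at 49.8, LOC100910973 at 48.7 and Apeg3 at 40.6. Of these, Rpl37a-ps1, Mir3064, Tnxa-ps1 and Apeg3 overlap coding models, whose reads may be counted in them. Lnc215, with a span of 117938 bases, had 2.74 per kb.

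Rpph1, on chromosome 15 from 27738989 to 27739245 of Rnor_6.0, is the RNA subunit of ribonuclease P. In Lean-LF its scaled signal was 1303, 1110 and 1012, in Lean-HFS 932, 974 and 1009, in GDM-LF 978, 820 and 1050 and in GDM-HFS 892, 927 and 1012. The first 2 Lean-LF libraries were the highest of the 12, and the third lay within the range of the GDM groups. Lean-LF 1, the highest, was also the library with the largest 45S share, and the part of ribosomal RNA in this difference was not tested beyond the covariate fit given with the dam comparison. Rn7sl1, a 7SL RNA model on chromosome 6 (91456912 to 91457210), had 49.8 per kb, well under Rpph1. That value counts reads over this model alone, so it does not give the level of 7SL RNA in the heart. The scaled signal of Rn7sl1 varied the most of all 50 models, with a coefficient of variation over the 12 libraries of 63.3%. The values were 14.1, 10.4 and 13.4 in Lean-LF, 16.6, 13.2 and 43.3 in Lean-HFS, 5.83, 10.1 and 12.7 in GDM-LF and 9.31, 13.4 and 16.3 in GDM-HFS. Lean-HFS 3 alone lay far above the rest, with 185 reads against 24 to 78 elsewhere.

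Variation between libraries differed among the models. LOC100910827 (Oip5-as1), on chromosome 3 from 111397051 to 111410587, ranged from 734 to 919 over the 12 libraries, a coefficient of variation of 7.49%. Tug1, a lncRNA linked to Polycomb repression, ranged from 85.1 to 104 with a coefficient of variation of 6.61%. Prrc2c, which the table types as a pseudogene and RefSeq calls transcribed, was the steadiest model at 4.19%. By contrast, Crnde, a lncRNA beside the Irx5 gene, reached 44.7% and Hoxb5os, on the strand opposite Hoxb5, 40.9%, on 12 to 63 and 10 to 52 reads per library. The median coefficient of variation of the 50 was 18.2%, against 12.8% for all models with a mean of at least 5. These medians were not matched for level. A mean under 20 was found for 17 of the 50, and counting noise weighs more at low values. Gas5, which hosts small nucleolar RNAs in its introns, had a mean of 29.1, and Ftx, a lncRNA of the X-inactivation centre, one of 52.9, with coefficients of variation of 17% and 18%. Neither passed the test for dam or diet (Gas5 log2 -0.04 ± 0.16 and 0.06 ± 0.16, Ftx 0.19 ± 0.13 and 0.06 ± 0.13, lowest limma adjusted p 0.643).

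Many of these models cannot be read on their own. By coordinates, 17 of the 50 overlapped a protein-coding model, 5 on the same strand and 12 only on the opposite strand. In 10 of the 17 the coding model had the higher mean. No source used here says how reads in an overlap were assigned or whether strand was used, so a read there may count for both models. Outside ribosomal RNA, models with a mean of at least 5 that lie wholly inside another model were examined. On the opposite strand there were 149 such cases, and in 148 the outer model held no fewer reads in any of the 12 libraries. The same held for 316 of 316 cases on the same strand, among them Vof16 inside Lnc215. Pln, for example, had a mean deposited signal of 10369 and lies inside Cep85l on the opposite strand, which had 11020. An outer model is longer, so a higher number alone does not show how reads were assigned. The other 33 had no such overlap. In 17 of these the nearest coding model was under 10000 bases away, and for 11 of the 17 it lay on the opposite strand. Within 1000 bases there were 9, with 7 on the opposite strand, among them Gas5 beside Zbtb37, Rpph1 beside Parp2 and Rhno1 beside Foxm1.

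For the 10 overlapping models with the highest means, the scaled signal was compared with that of the strongest overlapping coding model across the 12 libraries (permutation test with 100000 resamples, two-sided, Benjamini-Hochberg over 10 pairs). Both members of a pair share libraries and, in the overlap, possibly reads. Shared reads alone can give a high r, so a small p does not show that separate transcripts vary together. Rpl37a-ps1 followed Rpl37a, a protein of the large ribosomal subunit, at Pearson r = 0.999 and Spearman rho = 0.993 (adjusted permutation p = 3.3e-05 and 5e-05). That pseudogene overlaps Rpl37a over 99.9% of its span on the same strand, and their means were 292 and 295. Both models may thus count largely the same reads, and this r cannot tell the pseudogene from Rpl37a. LOC360231 followed RT1-T24-4, a class I histocompatibility gene, at r = 0.959 and rho = 0.979 (adjusted permutation p = 3.3e-05 and 5e-05), and r was 0.920 without GDM-LF 2 and GDM-LF 3. LOC689316 followed Fbxw17 at r = 0.939 and rho = 0.916 (adjusted permutation p = 3.3e-05 and 0.00053), and r was 0.872 without the 2 libraries farthest from the median of Fbxw17. Fbxw17 lies on the opposite strand and overlaps 27.8% of the LOC689316 span. The mean was 48.4 for Fbxw17 and 85.1 for LOC689316, so here too reads may be shared. The value 3.3e-05 comes from the smallest p the resamples can give.

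Apeg3, transcribed antisense to the imprinted gene Peg3, had r = 0.855 and rho = 0.741 with Peg3 (adjusted permutation p = 0.0012 and 0.019), and r was 0.721 without Lean-HFS 1 and GDM-HFS 1. Its span lies wholly within Peg3 on the opposite strand, so its reads may count for both. LOC681419 had r = 0.726 and rho = 0.727 with Rbbp4, a histone-binding protein (adjusted permutation p = 0.02 and 0.019), and r = 0.628 without Lean-HFS 3 and GDM-HFS 2. The span of LOC681419 lies wholly within Rbbp4 on the same strand, so the same limit holds. In the other 5 pairs the permutation test did not pass. LOC100911367, on chromosome 18 from 31792503 to 31808720, lies wholly within Nr3c1, the glucocorticoid receptor gene, on the opposite strand. It had r = -0.20 and rho = -0.20 with Nr3c1 (adjusted permutation p = 0.66 and 0.66), whose mean was 3024 against 42.6. Tnxa-ps1 had r = 0.320 and rho = 0.203 with C4a (0.44 and 0.66), and Lnc012 r = 0.472 and rho = 0.371 with Cplx2 (0.2 and 0.39). Tmem80 with Deaf1 and LOC100365289 with Ppp2r3b share at most 9.22% of the noncoding span and had r = 0.067 and 0.058 (both 0.86), with rho = 0.112 and -0.077 (0.81 and 0.82). Left as deposited, without scaling, r was 0.626 for Tnxa-ps1, 0.338 for Tmem80 and 0.332 for LOC100365289.

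**Figure D2:**
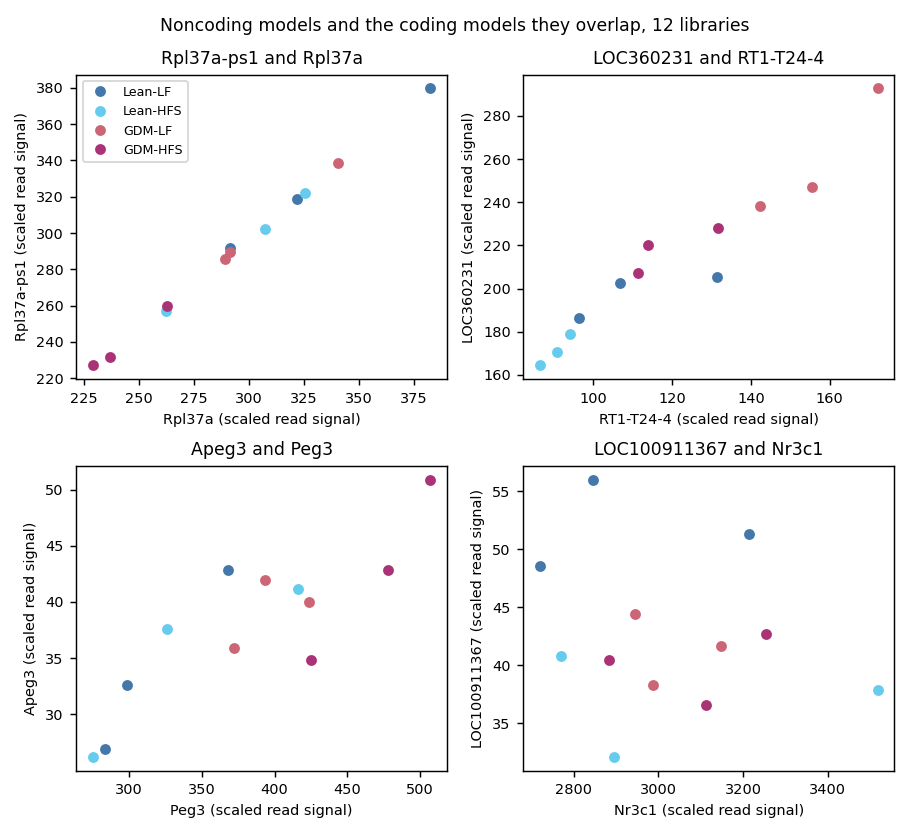
Scaled read signal of 4 noncoding models (vertical axes) against that of the coding model each overlaps (horizontal axes), 1 point per library, coloured by group. Axes do not start at 0. Rpl37a-ps1 lies on a line with Rpl37a (r = 0.999), and LOC100911367 shows no such line with Nr3c1 (r = -0.20).

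The first comparison set hearts of GDM dams' offspring against those of Lean dams, averaged over offspring diet. None of the 50 models passed limma with Benjamini-Hochberg adjustment, where 0.0616% of all models tested did. At an unadjusted p under 0.05 there were 4 of 50 (8.0%), against 11.2% of all models. edgeR also called 0 and DESeq2 1, LOC360231, with 1.19% of all models called by DESeq2. The log2 differences were positive for 25 and negative for 25, with a median of -0.014 against 0.0015 over all models.

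LOC360231, the model nearest to a call, is typed as a pseudogene and spans 61751 bases of the major histocompatibility region on chromosome 20 (3189501 to 3251251). Its scaled signal was 205, 203 and 186 in Lean-LF, 164, 179 and 171 in Lean-HFS, 238, 293 and 247 in GDM-LF and 207, 220 and 228 in GDM-HFS. All 6 GDM values lay above all 6 Lean values, a separation seen in 1 of the 50 models and in 0.793% of all models. The mean was 185 ± 16.6 (SD, n = 6) in Lean libraries and 239 ± 29.8 (SD, n = 6) in those of GDM offspring, a log2 difference of 0.37 ± 0.06 (limma adjusted p = 0.0577). It was 0.38 ± 0.09 on LF (limma adjusted p = 0.569) and 0.35 ± 0.09 on HFS (0.309). In DESeq2 the adjusted p was 0.000279 and in edgeR 0.0571, at the same log2 difference of 0.37.

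The difference in LOC360231 has counterparts in coding models within its span. RT1-T24-4, which covers 7957 of its bases, differed by 0.44 ± 0.08 between GDM and Lean (limma adjusted p = 0.0706), and RT1-T24-3, which covers 7304, by 0.43 ± 0.14 (0.276). Their means of 119 and 41.8 add to most of the 212 of LOC360231. With both subtracted, on the assumption that each of their reads was also counted for LOC360231, 48.2 ± 7.54 (SD, n = 6, range 37.4 to 56.2) remained in Lean libraries and 53.1 ± 3.01 (SD, n = 6, range 49.1 to 56.7) in GDM libraries. That remainder differed by 0.15 on the log2 scale (exact two-sided permutation p = 0.169 over 924 regroupings, smallest possible 0.00216). Members of this gene family are near-identical, so reads may also be split among copies. The subtraction was chosen after the values were seen, and the assumption behind it was not tested. From which of these models the dam difference comes was not tested either.

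The other models with the smallest dam p-values all missed the adjusted threshold. Lnc215 had a mean of 291 ± 29.9 (SD, n = 6) in Lean libraries, against 355 ± 65.9 (SD, n = 6) in GDM libraries (log2 0.27 ± 0.11, limma adjusted p = 0.389). Its highest values were 428 in GDM-LF 3, 437 in GDM-HFS 1 and 366 in GDM-HFS 2, and the remaining 9 libraries lay between 251 and 328. The difference was 0.18 without GDM-LF 3, 0.15 with the ribosomal RNA share as a covariate and 0.38 with values as deposited. Rpl37a-ps1 differed by -0.20 ± 0.08 (limma adjusted p = 0.389), and the overlap with Rpl37a covers nearly all of its span. Its difference was -0.12 with the erythroid score as a covariate, -0.091 with values as deposited and -0.30 with the ribosomal RNA share as a covariate. LOC103692984 differed by -0.35 ± 0.16, and the coding model it overlaps, Grasp, by -0.49 ± 0.12 (limma adjusted p = 0.438 and 0.172). The difference of LOC103692984 was -0.22 without GDM-LF 3 and -0.42 without GDM-LF 1. Rn7sl1 differed by -0.60 ± 0.28 (0.449), by -0.34 without Lean-HFS 3 and by -0.86 with the atrial marker score as a covariate. The mean of Rpph1 in Lean libraries was 1057 ± 134 (SD, n = 6), against 946 ± 84.0 (SD, n = 6) in GDM libraries, a log2 difference of -0.15 ± 0.08 (0.463). Over the alternatives run, which include the ribosomal RNA share as a covariate, that difference lay between -0.20 and -0.044.

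**Figure D3:**
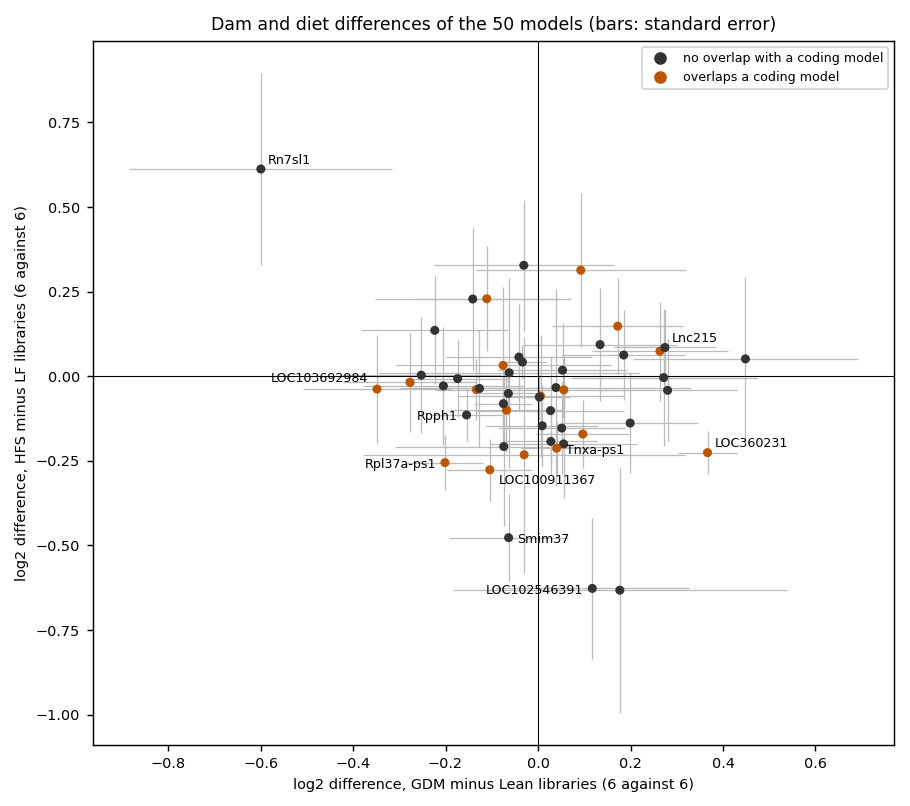
Log2 differences of the 50 models for dam (horizontal axis, GDM minus Lean) and offspring diet (vertical axis, HFS minus LF), each over 6 against 6 libraries, with standard errors as bars. Orange points overlap a coding model. Named points have an unadjusted p under 0.05 in either comparison, with Rpph1 added. Rn7sl1 lies at -0.60 and 0.61, and LOC360231 at 0.37 and -0.23.

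The second comparison set offspring on HFS against those on LF, averaged over dams. Again no model passed in limma, where 0.0% of all models did, or in edgeR or DESeq2. At an unadjusted p under 0.05 there were 7 of 50 (14.0%), 6 of them lower on HFS, against 7.92% of all models. Differences were positive for 18 and negative for 32, with a median of -0.039 against 0.0083 over all models. The 6 smallest p-values belonged to Smim37, LOC360231, Rpl37a-ps1, LOC100911367, LOC102546391 and Tnxa-ps1, and all 6 differences were negative.

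The microprotein genes Smim37 (Mtln) and LOC102546391 (Strit1) had the most negative diet differences among these. Smim37, on chromosome 3 from 120372665 to 120373523, had a scaled signal of 40.8, 37.7 and 37.5 in Lean-LF, 30.7, 19.1 and 26.4 in Lean-HFS, 30.8, 34.0 and 35.0 in GDM-LF and 26.1, 22.4 and 31.9 in GDM-HFS. The HFS values lay below the LF values of the Lean groups and overlapped them by 1 library in the GDM groups. Its mean was 36.0 ± 3.45 (SD, n = 6) on LF and 26.1 ± 4.84 (SD, n = 6) on HFS, a log2 difference of -0.48 ± 0.13 (limma adjusted p = 0.416), and lay between -0.55 and -0.38 when each library was left out in turn. The difference of -0.38 was that without Lean-HFS 2, the library with the lowest cardiomyocyte marker sum. Bub1, a mitotic checkpoint kinase whose model lies 81 bases away on the same strand, had a mean of 16.3 and a diet difference of -0.50 ± 0.18 (0.542).

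LOC102546391 (Strit1) lies on chromosome 2 from 154030401 to 154033265, with the nearest coding model, Mme, 149491 bases away. It gave 38.3, 32.4 and 25.2 in Lean-LF, 34.3, 16.8 and 19.9 in Lean-HFS, 51.0, 36.8 and 28.8 in GDM-LF and 19.5, 17.7 and 31.3 in GDM-HFS. HFS values were mostly lower, but the groups overlapped, and the values rested on 79 to 210 reads per library. The mean was 35.4 ± 9.05 (SD, n = 6) on LF and 23.2 ± 7.54 (SD, n = 6) on HFS, a log2 difference of -0.63 ± 0.21 (limma adjusted p = 0.513). With each library left out in turn it lay between -0.78 and -0.52, and with the atrial marker score as a covariate it was -0.48. The partners of the DWORF microprotein had smaller diet differences: Atp2a2, the SERCA pump, -0.13 ± 0.14 (0.836), and Pln, phospholamban, -0.22 ± 0.10 (0.611). Sarcolipin (Sln), another SERCA inhibitor and an atrial marker, differed by 1.91 ± 0.89 (0.629).

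Cell type markers leaned with diet and dam beside these differences. All 6 cardiomyocyte markers had negative diet differences (median -0.22), and all 8 atrial markers had positive ones (Nppa, Myl4, Myl7, Sln, Bmp10, Tbx5, Stard10 and Dkk3, median 1.14), as they did for dam (median 0.92). Summed atrial signal was 1534 to 2911 in Lean-LF, 3418 to 6216 in Lean-HFS, 1053 to 11451 in GDM-LF and 5363 to 18639 in GDM-HFS. The 4 adipocyte markers (Adipoq, Plin1, Cidec and Ucp1) were also higher on HFS in their median (2.26). Their summed signal was low, at 1.39 to 11.4 in Lean-LF, 7.01 to 36.4 in Lean-HFS, 2.67 to 33.8 in GDM-LF and 12.3 to 127 in GDM-HFS. None of these markers passed the adjusted threshold, and no marker list had a member at 0. For dam, 5 of 5 macrophage and 6 of 6 erythroid markers had negative differences (medians -0.47 and -0.46). The 4 smooth muscle markers had positive differences for dam and diet (medians 0.65 and 0.72), 4 of 5 endothelial markers had negative ones (medians -0.11 and -0.097), and 4 tested fibroblast markers had medians of -0.10 and 0.056. In whole hearts, fewer cells of a type and less RNA per cell cannot be told apart. The part of the adipocyte and cardiomyocyte markers in the diet differences was not tested.

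LOC100911367, the model inside Nr3c1, had 51.3, 48.6 and 56.0 in Lean-LF, 40.8, 32.1 and 37.9 in Lean-HFS, 44.5, 38.3 and 41.7 in GDM-LF and 36.6, 42.7 and 40.5 in GDM-HFS. Lean-LF stood above the other 3 groups, which overlapped. Averaged over dams the diet difference was -0.28 ± 0.09 (limma adjusted p = 0.513), whereas Nr3c1 differed by 0.04 ± 0.07 (0.889). Between Lean-HFS and Lean-LF the difference of LOC100911367 was -0.50 ± 0.13 (0.881), and the interaction of dam and diet was 0.44 ± 0.18 (0.999). Tnxa-ps1, a pseudogene of tenascin XA opposite C4a, was the only one of the 50 whose HFS values all lay below its LF values, a separation 0.347% of all models showed in either direction. Its mean was 75.8 ± 6.96 (SD, n = 6) on LF and 65.2 ± 2.89 (SD, n = 6) on HFS (log2 -0.21 ± 0.08, limma adjusted p = 0.533). The span of Tnxa-ps1 lies wholly within C4a and Stk19 on the opposite strand. Their mean deposited signals were 1931 and 1846, against 70.7 for Tnxa-ps1, and reads there may count for these models as well. C4a had a diet difference of -0.011 ± 0.060 (limma adjusted p = 0.968).

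**Figure D4:**
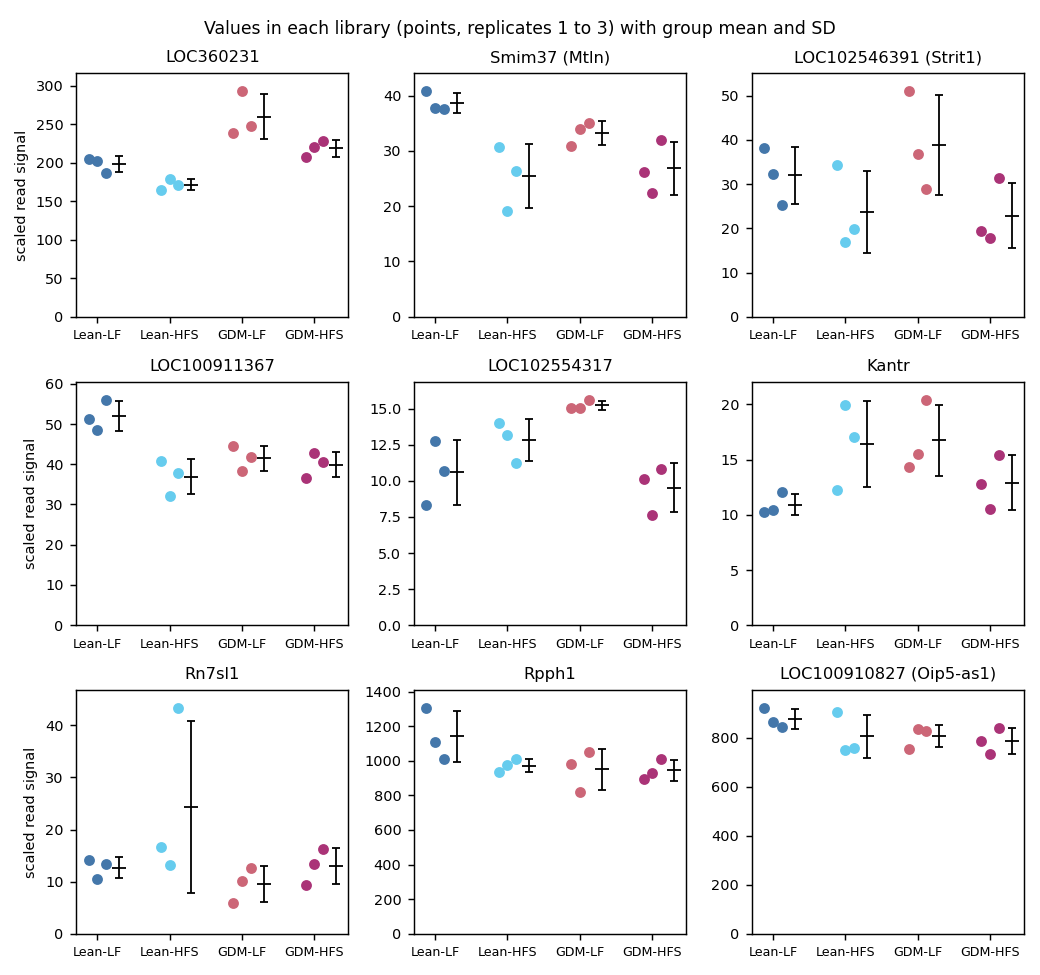
Scaled read signal in each library (points) with group mean and SD (bars, n = 3) for 9 noncoding models, on axes starting at 0. LOC360231 lay above all Lean values in both GDM groups, Smim37 was highest in Lean-LF (37.5 to 40.8), and Rn7sl1 has 1 high library at 43.3.

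Within single diets or dams, too, no model passed limma, edgeR or DESeq2. limma called 0.0308% of all models for GDM-LF against Lean-LF, 0.0154% for GDM-HFS against Lean-HFS and 0.0% for Lean-HFS against Lean-LF, for GDM-HFS against GDM-LF and for the interaction of dam and diet. At an unadjusted p under 0.05 the 50 models gave 7 for GDM-LF against Lean-LF (background 5.0%), 4 for GDM-HFS against Lean-HFS (9.64%), 7 for Lean-HFS against Lean-LF (5.21%), 4 for GDM-HFS against GDM-LF (5.57%) and 4 for the interaction (3.01%). Groups of 3 did not overlap for 8 of the 50 models in GDM-LF against Lean-LF, where 11% of all models did not. The corresponding numbers were 3 (13.8%) for GDM-HFS against Lean-HFS, 8 (10%) for Lean-HFS against Lean-LF and 5 (11.4%) for GDM-HFS against GDM-LF. These contrasts share groups, so their counts are not independent.

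Kantr, a lncRNA on the X chromosome (22369521 to 22399881) with Tspyl2 as the nearest coding model, was low in Lean-LF at 10.3, 10.4 and 12.04. It reached 12.2, 19.98 and 17.1 in Lean-HFS, 14.3, 15.5 and 20.4 in GDM-LF and 12.8, 10.5 and 15.4 in GDM-HFS. Lean-LF lay below Lean-HFS and below GDM-LF without overlap, and GDM-HFS overlapped it. The log2 difference from Lean-LF was 0.56 ± 0.24 in Lean-HFS (limma adjusted p = 0.881) and 0.60 ± 0.24 in GDM-LF (0.981), and the interaction was -0.93 ± 0.33 (0.999). Kantr rested on 37 to 119 reads per library.

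LOC102554317, a lncRNA model on chromosome 11 (31598246 to 31609573), had the smallest interaction p-value of the 50. Its scaled signal was 8.32, 12.8 and 10.6 in Lean-LF, 14.0, 13.2 and 11.2 in Lean-HFS, 15.1, 15.1 and 15.6 in GDM-LF and 10.1, 7.60 and 10.8 in GDM-HFS. GDM-LF lay above Lean-LF, and GDM-HFS lay below Lean-HFS and below GDM-LF, the last with a log2 difference of -0.69 ± 0.22 (limma adjusted p = 0.785). The interaction was -0.98 ± 0.32 on the log2 scale (limma adjusted p = 0.999), on 30 to 91 reads per library. LOC100909539, beside Sema5a, differed by 0.55 ± 0.21 between GDM-LF and Lean-LF (0.981), and by 0.28 without Lean-LF 3, its lowest library at 12.7. Without Lean-LF 2 that difference was 0.71.

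Proteins that bind or process noncoding RNA were described from 8 lists of coding genes. No gene of any list passed limma's adjusted threshold in either averaged comparison. Over all models tested, 50.4% had positive dam differences and 52.2% positive diet differences, and 11.2% (dam) and 7.92% (diet) had an unadjusted p under 0.05. Nothing particular to a list is read from its counts. Of 12 paraspeckle and speckle proteins, 9 had positive dam differences (median 0.063), 4 of them at an unadjusted p under 0.05, with Matr3, a nuclear matrix RNA-binding protein, at 0.21 ± 0.06 (limma adjusted p = 0.242). Of 6 signal recognition particle proteins, the partners of 7SL RNA, 5 were positive for dam (median 0.13) and 5 negative for diet (median -0.077), with Srp19 at 0.32 ± 0.10 (0.289) and Srp9 at -0.21 ± 0.07 (0.513). The 10 proteins of RNase P and MRP, the partners of Rpph1, split 5 to 5 in both comparisons. Among 11 microRNA processing genes, 9 were positive for dam (median 0.063), and Prkra, a cofactor of Dicer, had -0.30 ± 0.11 (0.341). Of 12 nuclear exosome genes, whose complex degrades noncoding transcripts, 9 were positive for dam (median 0.052), and Exosc4 had the smallest diet p-value at -0.57 ± 0.12 (0.389). Of 6 genes of the 7SK particle and P-TEFb, Hexim1 had -0.20 ± 0.07 for diet (0.513). The 17 polymerase III genes and 10 small nucleolar RNP genes had dam medians of 0.0093 and 0.061, and diet medians of -0.0068 and -0.0018.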

How the data were processed

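Per the labels' protocols, ribosomal RNA was removed from heart total RNA, and NEBNext Ultra II directional libraries were read in pairs of 100 bases on an Illumina HiSeq4000 and aligned to Rnor_6.0 with STAR 2.5.1b. The submitters' processing notes also name HOMER 4.9, Trim Galore, FastQC and edgeR. The deposited table is named FPKM, and the tests were planned for that unit, but its values are a normalised signal: dividing by a library's step gave whole reads within 0.1 for 100% of values. The deposited signal was scaled by median-of-ratios factors (0.886 to 1.15), and models with a mean of at least 0.5 were tested with limma 3.58.1 in R 4.3.3 on log2(scaled value + 0.1), with 4 group means, 12 libraries, 8 residual degrees of freedom, a variance trend, 7 contrasts and two-sided Benjamini-Hochberg adjusted p-values (threshold 0.05). Errors are standard errors of log2 differences, or SDs between libraries. edgeR 4.0.16 and DESeq2 1.42.0 on the recovered reads were alternatives, as were other scalings, filters, covariates, a replicate block and leaving out each library. Libraries within a group differed by more than counting noise. The code was tested on simulated data. Named models were the 10 highest by mean and by mean per kb, those with the smallest p-values (6 per averaged contrast, 3 in the others), known lncRNAs and small RNAs, the 10 overlapping models with the highest means, those next to the threshold and the 3 most and least variable. Models and lists were chosen with earlier results of these data known.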

Additional observations from a re-analysis of the deposited data

Results flagged for a closer look

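LOC102554317, which had the smallest interaction p-value of the noncoding models, was higher with GDM dams on LF and lower on HFS. Its interaction did not pass the adjusted threshold, and its values rested on 30 to 91 reads per library. All 3 GDM-LF values (15.1 to 15.6) lay above all 3 Lean-LF values (8.32 to 12.8), and all 3 GDM-HFS values (7.60 to 10.8) lay below all 3 Lean-HFS values (11.2 to 14.0). The log2 interaction was -0.976613 (limma adjusted p = 0.999 over all models). It lay between -1.12 and -0.82 over all the alternatives run. Groups of 3 libraries are too small for the check of single outlying samples.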

How the results depend on the processing

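The count of models called stayed at 0 in 171 of 172 alternatives, and was 1 with DESeq2 for GDM against Lean, LOC360231. No named model changed direction in 634 alternatives, and 1 crossed the threshold (LOC360231 in DESeq2, log2 0.37). For that model the limma adjusted p for dam was 0.0642 to 0.171 when each library was left out in turn. It was 0.208 to 0.236 with the ribosomal RNA, atrial or erythroid covariate, and 0.222 without the variance trend. The median log2 difference of the 50 stayed within its spread between libraries (0.0324) in 138 of 165 alternatives. Without scaling, the median of all models moved to 0.11 for dam and 0.11 for diet, and that of the 50 to 0.096 for GDM against Lean, 0.059 for HFS against LF, 0.079 for GDM-LF against Lean-LF, 0.093 for GDM-HFS against Lean-HFS, 0.079 for Lean-HFS against Lean-LF and 0.066 for GDM-HFS against GDM-LF, so these medians take the sign of the scaling. The median was 0.0053 for GDM-LF against Lean-LF with the erythroid covariate and -0.066 for Lean-HFS against Lean-LF with the atrial one. For the interaction it was -0.030 in edgeR and -0.026 in DESeq2. Leaving out each library gave -0.026 to 0.010 for GDM against Lean, -0.075 to -0.027 for HFS against LF, -0.055 to 0.026 for GDM-LF against Lean-LF, -0.048 to -0.0037 for GDM-HFS against Lean-HFS, -0.064 to 0.011 for Lean-HFS against Lean-LF, -0.095 to -0.014 for GDM-HFS against GDM-LF and -0.075 to 0.051 for the interaction. As deposited, r was 0.626 for Tnxa-ps1, 0.338 for Tmem80 and 0.332 for LOC100365289. The cause of these shifts was not tested. Deviations from the group means had r = -0.098 to 0.115 over 18 pairs of same-numbered libraries, against -0.13 to 0.20 over 36 others. Between Lean-LF and Lean-HFS the same-numbered pairs had r = 0.075, 0.063 and 0.115, and differently numbered pairs -0.070 to -0.0061. Between GDM-LF and GDM-HFS the same-numbered pairs had r = -0.077, 0.085 and -0.098. Whether the numbers pair animals or litters cannot be told from these values. With the replicate block, no model was called and LOC360231 had an adjusted p of 0.0724 for dam. The median standard error of an averaged difference was 0.15 among the 50, which limits what 12 libraries can show.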
